A study of Mus musculus with 8 samples.

Results

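A set of 40 genes of the heat shock response and of the stress response of the endoplasmic reticulum (ER) was followed in mouse brown adipose tissue (BAT), the fat depot that burns fuel to make heat. They were listed by symbol and function, with no threshold on measured values, and all 40 were found among the 49452 genes of the expression table. By role, 13 belong to the cytosolic heat shock response, 3 are chaperones of the mitochondrial matrix, 15 act in folding and quality control in the ER, 6 are sensors or transcription factors of the unfolded protein response (UPR) and 3 are enzymes or pseudoenzymes downstream of ATF4 and CHOP. The values are FPKM (fragment numbers scaled to transcript length and to library size) from RNA-Sequencing of 8 BAT libraries in 4 groups of 2. In the cold experiment, male C57BL/6 mice of 10 to 12 weeks were kept at 22 °C (replicates 4 and 7) or at 4 °C for 24 h (replicates 2 and 11). In the diet experiment, male C57BL/6 mice of 32 weeks had eaten a normal chow diet (NCD, replicates 6 and 8) or a high-fat diet (HFD, replicates 2 and 6) for 28 weeks. The labels call the control food chow and the study describes a matched control diet, so which was fed is not settled. The cold-exposed mice were fasted before they were killed, and whether the mice kept warm were fasted is unclear.

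Heat shock proteins are chaperones that hold, unfold or refold other proteins, and many of their genes are driven by the transcription factor HSF1 when proteins misfold in the cytosol. In the ER, misfolded proteins draw the chaperone BiP away from the sensors IRE1, PERK and ATF6, which then raise chaperones, the degradation of ER proteins and, through ATF4 and CHOP, a programme shared with amino acid shortage and mitochondrial stress. Brown adipocytes secrete proteins, remodel lipid membranes and rebuild mitochondria when they are activated, and ER and mitochondrial stress factors have been studied in this tissue for that reason.

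Promoter sequences are shown first, as a description. The genes were listed by their function in heat shock and ER stress, so the stress elements searched here are not independent of that choice. Of the 40 genes, 32 matched the RefSeq promoter table of GRCm38.p6, which holds 250 bases before and 50 bases after each gene start. The ER stress response element (ERSE), known as a binding site of ATF6 with NF-Y, was searched on both strands as CCAAT, then any 9 bases, then CCACG. It was present in 7 of the 32 genes, namely Calr, Canx, Creld2, Dnajc3, Hsp90b1, Hspa5 and Pdia6, and in 39 of 32851 promoters in all (0.119%). All 7 encode ER proteins, and Hsp90b1 held 2 matches. The matches are printed 5′ to 3′ along the gene's strand, with the element in capitals and 20 bases on each side, and those printed all end before the RefSeq start. That of Hspa5, which lies within the first exon of a longer Ensembl transcript, is printed without its surroundings.
Hspa5, chr2:34772025-34772043, plus strand, ending 46 bases before the start: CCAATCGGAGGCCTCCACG
Calr, chr8:84847055-84847113, minus strand, element reversed: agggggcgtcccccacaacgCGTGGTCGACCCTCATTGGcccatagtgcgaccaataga
Canx, chr11:50325780-50325838, minus strand: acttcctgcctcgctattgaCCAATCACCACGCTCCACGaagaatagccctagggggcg
Creld2, chr15:88819500-88819558, plus strand, element reversed: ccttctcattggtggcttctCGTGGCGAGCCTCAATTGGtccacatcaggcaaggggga
Dnajc3, chr14:118937807-118937865, plus strand: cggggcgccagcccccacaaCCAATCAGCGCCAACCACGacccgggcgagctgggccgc
Hsp90b1, chr10:86705618-86705676, minus strand, the match farther from the start: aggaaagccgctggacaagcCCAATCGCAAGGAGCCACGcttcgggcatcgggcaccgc
Pdia6, chr12:17266471-17266529, plus strand: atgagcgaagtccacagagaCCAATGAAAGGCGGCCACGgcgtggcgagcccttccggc

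ERSE-II, searched as ATTGG, any 1 base, then CCACG, was present in Dnajb11 and Herpud1 and in 12 of all promoters (0.0365%). The Herpud1 match ended 41 bases before the start. A heat shock element of 3 alternating units (GAA, 2 bases, TTC, 2 bases, GAA) was present in Hspd1, Hspe1 and Hsph1 and in 198 of all promoters (0.603%). Hspd1 and Hspe1 encode the mitochondrial chaperonin and its lid and are read in opposite directions from neighbouring starts, and the printed match lies before the RefSeq start of each. It is also within an exon of a longer Ensembl transcript, so it is printed without its surroundings. The UPR element core (TGACG followed by TGG) was in 0 of the 32 genes and in 0.676% of all promoters. The C/EBP-ATF element (TGATG, 1 base, AAT), to which ATF4 dimers bind, was in 0 of the 32 and in 0.965% of all. A match describes the letters in this window only, and the absence of a match says nothing of binding elsewhere.
Herpud1, chr8:94386357-94386407, plus strand: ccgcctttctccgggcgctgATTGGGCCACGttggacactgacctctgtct
Hspd1, chr1:55088059-55088071, minus strand: GAAGGTTCTAGAA

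Several features of the libraries bear on all values. Between 10228 and 11436 genes reached 1 FPKM per library, and 1 fragment on a transcript of 2000 bases was worth 0.00403 to 0.00557 FPKM as read from the steps between low values. Genes of the X chromosome are listed at 0, and at most 1 mitochondrial gene is above 0, in both libraries at 22 °C and in NCD replicate 6. None of the 40 genes lies there, but the scale of these 3 libraries may differ, so results were also rescaled. In each group 1 library (22 °C replicate 4, 4 °C replicate 11, NCD replicate 8 and HFD replicate 2) had the satellite-repeat gene Gm10800 above 100 FPKM, and this difference is called library type. Brown adipocyte markers were present in every library, with Ucp1, the uncoupling protein of brown fat, at 699 to 6462 FPKM. Skeletal muscle markers also varied. The summed FPKM of the 11 muscle markers was 106 to 512 at 22 °C, 1810 to 4402 at 4 °C, 550 to 1407 in NCD and 14.7 to 166 in HFD, so muscle markers moved with both comparisons. None of the 11 was at 0 in every library.

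All 40 genes were above 0 in all 8 libraries, and 33 of them reached 1 FPKM in each. Hspa8, which encodes the constitutive cytosolic Hsp70, had the highest mean level at 497.5 FPKM over the 8 libraries. The next highest were Hspa9 (214 FPKM, the mitochondrial Hsp70), Hsp90ab1 (183 FPKM, the constitutive cytosolic Hsp90) and Hspd1 (139.7 FPKM). In the ER the highest were the calcium-binding lectin chaperone Calr (105 FPKM) and Hspa5, which encodes BiP (97.8 FPKM). Atf4 had the highest mean among the sensors and factors (54.3 FPKM) and Asns, asparagine synthetase, among the ATF4 and CHOP targets (20.3 FPKM). The lowest means were those of Ern1 (1.31 FPKM), which encodes the sensor IRE1, and of Hspa2 (0.961 FPKM), known as a testis-enriched Hsp70. The plot of levels by gene shows that the 22 °C libraries were close to each other for most genes, whereas the NCD libraries were often far apart. NCD replicate 8 was below NCD replicate 6 for 35 of the 40 genes, and 4 °C replicate 2 was above 4 °C replicate 11 for 35 of the 40.

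**Figure D1:**
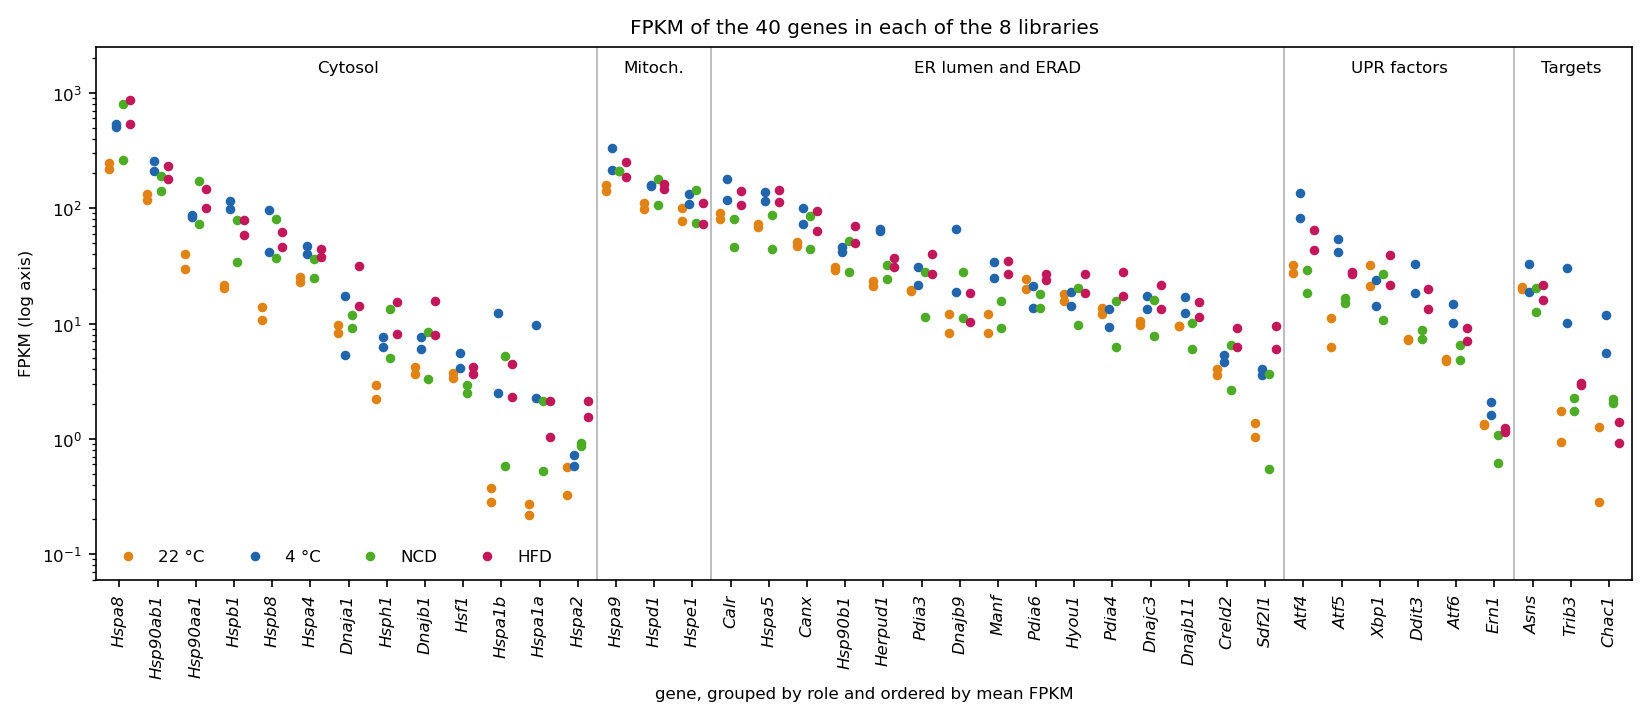
FPKM (log axis) of each of the 40 genes in each of the 8 libraries, with 1 point per library coloured by group and genes grouped by role and ordered by mean FPKM. Hspa8 lies highest at a mean of 497.5 FPKM, and Hspa1a and Hspa1b lie below 0.4 FPKM in both 22 °C libraries.

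The first comparison asked how cold exposure of 24 h changes the BAT transcriptome. Of the 40 genes, 3 passed the test, which asks for an adjusted p under 0.05 and a change of at least 2-fold, and all 3 rose: Hspb1, a small heat shock protein, Atf5, a transcription factor of the mitochondrial UPR, and Herpud1, a membrane scaffold of ER-associated degradation. Over all 17477 genes tested, 1.44% passed, 1.22% upwards and 0.223% downwards. The groups did not overlap, with both 4 °C libraries higher, for 34 of the 40 genes, against 37.9% of all genes tested and 46.9% of the genes that averaged 1 FPKM or more. None of the 40 was lower in both, against 20.6% of all. Both 4 °C libraries were higher with at least a 2-fold change in 17 of the 40, against 5.29% of all. The median log2 fold change of the 40 was 0.83, beside 0.07 over all genes tested and 0.21 over genes averaging 1 FPKM or more. An unadjusted p under 0.05 was reached by 27 of the 40 (67.5%) and by 24.5% of all genes.

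The count of 3 depends on how the values are scaled and modelled. With library type as a covariate 16 of the 40 passed, all upwards, against 4.92% of all genes (4.31% upwards). Each group holds 1 library of each type, so this covariate acts as a pairing of libraries by type. It leaves the log2 fold changes unchanged and takes up replicate spread, and few residual degrees of freedom remain. With the median level of each library set equal 12 passed, against 4.34%. Leaving out 1 library left 0 or 1 gene past the threshold: Chac1 without 22 °C replicate 4 (1.41% of all genes), Atf5 without 22 °C replicate 7 (0.698% of all), and none without either 4 °C library, where 0 of all genes passed. The split into higher and lower was also scale-dependent. After median centring 31 of the 40 were higher in both 4 °C libraries and 3 lower, beside 19.8% and 47.8% of all genes. After rescaling to the autosomal sum without Ucp1 these counts were 17 and 3, beside 13.2% and 26.6% of all genes.

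In the cytosolic heat shock group, 12 of 13 genes were higher in both 4 °C libraries, the median log2 fold change was 1.15, and 1 passed. The share higher in both was 92.3%, beside 37.9% of all genes and 46.9% of those averaging 1 FPKM or more. The cold counts by role use values as deposited, and their total fell after rescaling. Hspb1 measured 21.6 and 20.1 FPKM at 22 °C and 116.5 and 98.4 FPKM at 4 °C. The 4 libraries fall into well separated pairs, and Hspb1 rose by 2.31 log2 units (SE 0.22, adjusted p = 0.0223). Hspb8, another small heat shock protein, measured 10.7 and 13.9 FPKM at 22 °C and 95.7 and 42.1 FPKM at 4 °C. The log2 difference was 2.29 (SE 0.42, adjusted p = 0.0599), and the 4 °C libraries differed from each other more than those at 22 °C. Both genes are abundant in skeletal muscle as a rule.

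Hspa1a and Hspa1b encode the stress-inducible Hsp70. Hspa1a measured 0.272 and 0.218 FPKM at 22 °C and 9.66 and 2.24 FPKM at 4 °C. Hspa1b measured 0.371 and 0.281 FPKM at 22 °C and 12.4 and 2.50 FPKM at 4 °C. The reading frames of both genes are 99.4% identical, so how fragments were divided between them is uncertain, and Hspa1a also overlaps Gm20481 on the opposite strand by 2225 bases. Summed, they came to 0.644 and 0.499 FPKM at 22 °C and 22.1 and 4.75 FPKM at 4 °C. Both 4 °C libraries were far above both 22 °C libraries, and replicate 2 was several times replicate 11. The log2 fold changes were 2.24 for Hspa1a (SE 0.55, adjusted p = 0.0903) and 2.37 for Hspa1b (SE 0.61, adjusted p = 0.10). By the fragment steps, the lowest library held about 73.3 fragments of Hspa1a.

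Hsp90aa1, the inducible cytosolic Hsp90, measured 29.5 and 39.7 FPKM at 22 °C and 87.7 and 83.3 FPKM at 4 °C (log2 fold change 1.30, SE 0.24, adjusted p = 0.0611). Hsph1, an Hsp110 that exchanges the nucleotide of Hsp70, measured 2.22 and 2.91 FPKM at 22 °C and 6.22 and 7.60 FPKM at 4 °C (1.15, SE 0.21, adjusted p = 0.0584). Hspa8 measured 244.7 and 220.7 FPKM at 22 °C and 540.8 and 506.8 FPKM at 4 °C (1.17, SE 0.28, adjusted p = 0.0867). In all 3 the groups were separated by more than their replicate spread, though none passed. The other members with both 4 °C libraries higher had log2 fold changes of 0.20 to 0.89: Hsp90ab1, the Hsp110 Hspa4, the J-domain co-chaperone Dnajb1, Hsf1, which encodes the heat shock transcription factor itself, and Hspa2. Dnaja1, another J-domain co-chaperone, measured 9.63 and 8.26 FPKM at 22 °C and 5.34 and 17.4 FPKM at 4 °C, with 1 cold library on each side of the controls. It overlaps Smu1 on the opposite strand by 608 bases.

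The 3 mitochondrial chaperones were all higher in both 4 °C libraries (beside 37.9% of all genes), the median log2 fold change was 0.60, and none passed. Hspa9 measured 140.5 and 158.6 FPKM at 22 °C and 215.7 and 335.5 FPKM at 4 °C (0.85, SE 0.32, adjusted p = 0.189). Hspd1 measured 98.7 and 109.9 FPKM at 22 °C and 156.5 and 159.6 FPKM at 4 °C (0.60, SE 0.24, adjusted p = 0.204). Hspe1 had a log2 fold change of 0.44. Hspd1 and Hspe1, whose shared heat shock element is printed above, overlap by 112 bases as Ensembl genes and have processed pseudogenes at up to 1.16 FPKM, far below their own levels.

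In the ER group, 12 of 15 genes were higher in both 4 °C libraries (80.0%, beside 37.9% of all genes), the median log2 fold change was 0.56, and 1 passed. Herpud1 measured 23.5 and 21.3 FPKM at 22 °C and 65.4 and 63.9 FPKM at 4 °C, with the replicates close together in both groups. The rise was 1.49 in log2 units (SE 0.20, adjusted p = 0.0442). Under quantile normalization the change was 0.99 and under the autosomal sum 1.08, and it did not pass in either (adjusted p = 0.0787 and 0.258, with a range of 0.00120 to 0.258 over all alternatives). Hspa5 measured 69.2 and 73.0 FPKM at 22 °C and 137.6 and 115 FPKM at 4 °C (0.82, SE 0.24, adjusted p = 0.121). Calr measured 90.7 and 80.7 FPKM at 22 °C and 178.9 and 117.7 FPKM at 4 °C (0.76, SE 0.30, adjusted p = 0.200).

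The other ER members with non-overlapping groups and a change of at least 2-fold were Manf, Dnajb9 and Sdf2l1. Manf, an ER-resident factor that binds BiP and can be secreted, measured 8.26 and 12.1 FPKM at 22 °C and 34.4 and 25.0 FPKM at 4 °C (1.46, SE 0.28, adjusted p = 0.0618). Dnajb9, a J-domain partner of BiP, measured 8.34 and 12.1 FPKM at 22 °C and 66.6 and 18.6 FPKM at 4 °C (1.72, SE 0.60, adjusted p = 0.166). The distance between its cold libraries exceeded that between the groups' nearest values. Sdf2l1, which works with the J-domain protein Dnajb11, measured 1.38 and 1.03 FPKM at 22 °C and 4.05 and 3.57 FPKM at 4 °C (1.13, SE 0.18, adjusted p = 0.0517). Canx, Hsp90b1, Pdia3, Dnajc3, Dnajb11 and Creld2 were higher in both by 0.32 to 0.79. The genes that were not higher in both were the nucleotide exchange factor Hyou1 (log2 fold change -0.05) and the disulfide isomerases Pdia4 (-0.19) and Pdia6 (-0.35). The 7 genes with an ERSE match ranged from Pdia6 (-0.35) to Hspa5 (0.82), and none of them passed.

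**Figure D2:**
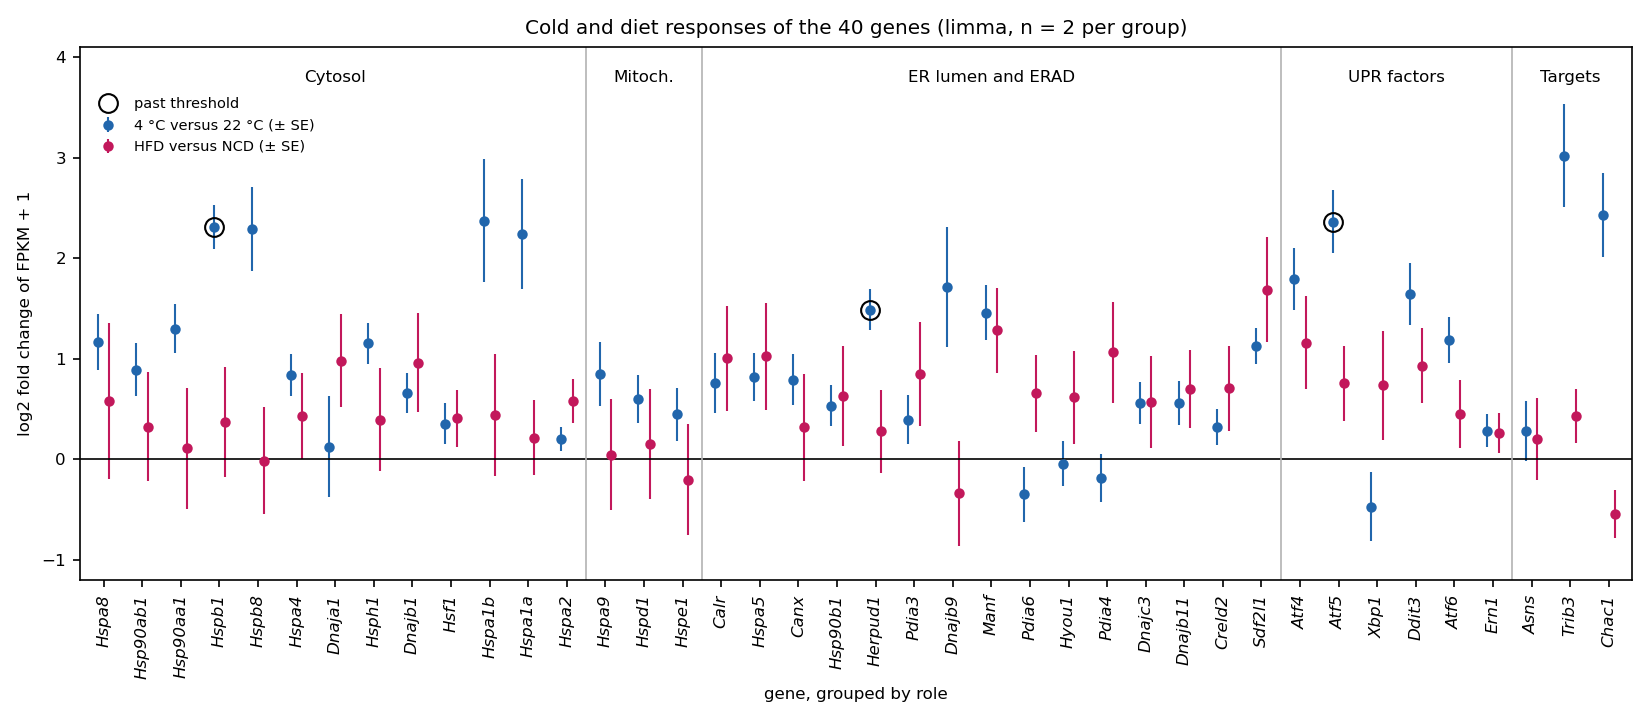
Log2 fold change of FPKM + 1 (± SE, limma, n = 2 per group) of each of the 40 genes for 4 °C versus 22 °C and HFD versus NCD, with circles around the 3 changes past the threshold. Hspb1, Atf5 and Herpud1 are circled at 2.31, 2.36 and 1.49 in the cold comparison, and no diet value is circled.

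Among the UPR sensors and factors, 5 of 6 were higher in both 4 °C libraries (83.3%, beside 37.9% of all genes), the median log2 fold change was 1.41, and 1 passed. Atf5 measured 6.20 and 11.2 FPKM at 22 °C and 53.5 and 41.5 FPKM at 4 °C, and rose by 2.36 log2 units (SE 0.32, adjusted p = 0.0442). Its gene overlaps Nup62 on the opposite strand by 571 bases, and Nup62 was at 2.74 to 7.60 FPKM. Atf4, whose translation rises when the initiation factor eIF2 is phosphorylated, measured 27.5 and 32.5 FPKM at 22 °C and 136 and 82.5 FPKM at 4 °C (1.79, SE 0.31, adjusted p = 0.0558). Ddit3, which encodes CHOP, measured 7.30 and 7.14 FPKM at 22 °C and 33.0 and 18.3 FPKM at 4 °C (1.64, SE 0.31, adjusted p = 0.0611). Atf6 measured 4.90 and 4.73 FPKM at 22 °C and 14.6 and 10.2 FPKM at 4 °C (1.18, SE 0.23, adjusted p = 0.0627). In each of these the lower cold library was above both controls, and with library type as a covariate Atf4, Ddit3 and Atf6 passed as well.

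Ern1 and Xbp1, of the IRE1 arm, had the smallest log2 fold changes of this group, though not the smallest levels in the case of Xbp1. Ern1 measured 1.31 and 1.35 FPKM at 22 °C and 2.08 and 1.62 FPKM at 4 °C (0.28, SE 0.16, adjusted p = 0.332). Xbp1, whose mRNA IRE1 splices, measured 32.3 and 21.0 FPKM at 22 °C and 24.0 and 14.1 FPKM at 4 °C, with overlapping groups and a log2 difference of -0.48 (SE 0.34, adjusted p = 0.439). Gene-level FPKM does not separate spliced from unspliced Xbp1 mRNA.

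Downstream of ATF4 and CHOP, Trib3 and Chac1 had the 2 largest differences of the 40 genes in log2(FPKM + 1). As ratios of mean FPKM, Hspa1a (24.3) and Hspa1b (22.9) exceeded Trib3 (15.1) and Chac1 (11.3). Trib3, a pseudokinase, measured 0.933 and 1.76 FPKM at 22 °C and 30.4 and 10.2 FPKM at 4 °C (3.02, SE 0.51, adjusted p = 0.0547). Chac1, which degrades glutathione, measured 1.26 and 0.285 FPKM at 22 °C and 11.8 and 5.57 FPKM at 4 °C (2.43, SE 0.42, adjusted p = 0.0560). Both were separated from the controls by several-fold in each library. Asns, a target of the same factor, measured 20.01 and 20.78 FPKM at 22 °C and 32.7 and 18.9 FPKM at 4 °C. Its groups overlapped, with a log2 difference of 0.28 (SE 0.30, adjusted p = 0.612).

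**Figure D3:**
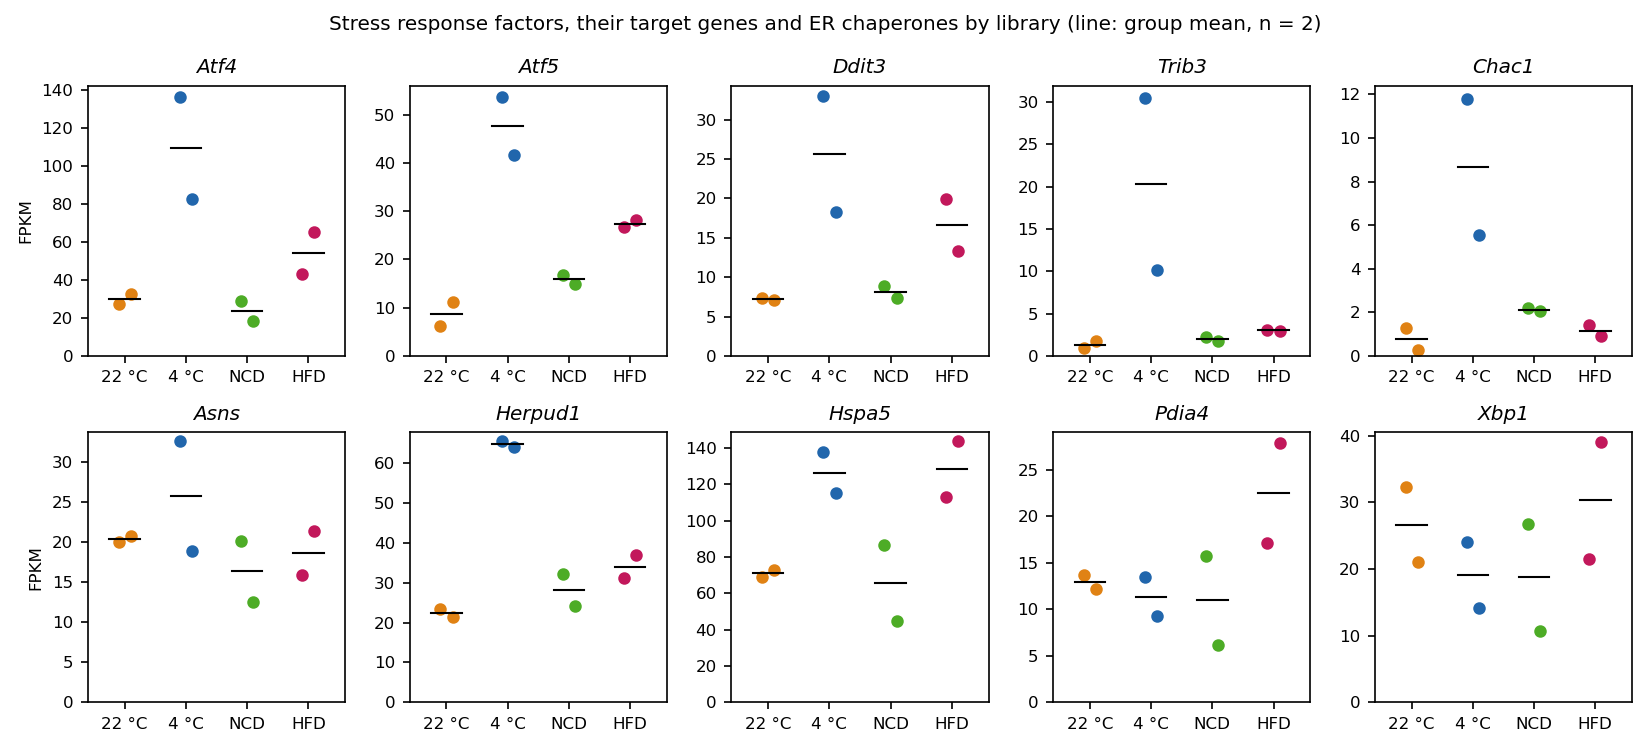
FPKM of 10 genes in each library by group, with 1 point per library and a line at the group mean (n = 2). Atf4, Atf5, Ddit3, Trib3, Chac1 and Herpud1 have both 4 °C libraries above every other library except that HFD replicate 2 exceeds 4 °C replicate 11 for Ddit3 (19.96 against 18.29 FPKM), while Pdia4 is highest in the HFD libraries.

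Muscle markers moved with the cold exposure: 11 of 11 were higher in both 4 °C libraries, their median log2 fold change was 3.46, and Myh7 passed. In this bulk tissue, fewer cells of a type and less RNA per cell cannot be told apart. The muscle marker score, the mean log2(FPKM + 1) of the 11 markers, ranged from 2.87 to 4.73 at 22 °C, from 6.58 to 7.67 at 4 °C, from 4.78 to 6.45 in NCD and from 1.04 to 3.45 in HFD. Over the 8 libraries, which share groups and library type, the Pearson r with this score was 0.83 for Chac1, 0.57 for Trib3, 0.48 for Herpud1, 0.30 for Atf5, 0.28 for Hspb1 and 0.22 for Hspb8. It was at least 0.5 for 2 of the 40 and below 0 for 20. With the score as a covariate in a fit of all 8 libraries, 0 of the 40 and 0 of all genes passed in the cold comparison, and the Hspb1 change was 2.95 (SE 0.64, adjusted p = 0.166, the highest of its alternatives, the lowest being 3.75e-05). In that fit the cold value was lower than without the score for 8 of the 40, among them Chac1 (2.43 to 1.62), Ddit3 (1.64 to 1.17) and Trib3 (3.02 to 2.93), and higher for the others, among them Atf5 (2.36 to 2.73) and Herpud1 (1.49 to 1.73). The part of muscle RNA in these results was not tested further.

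**Figure D4:**
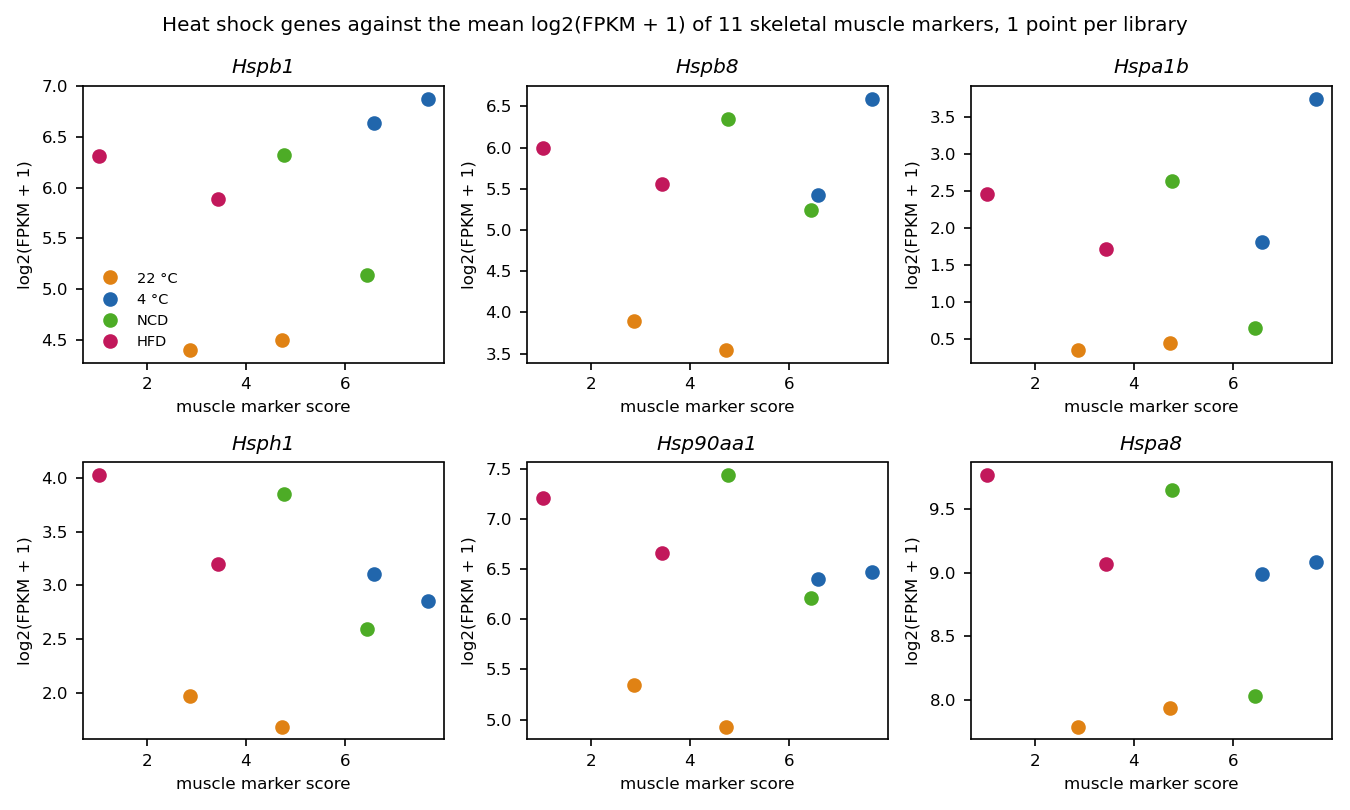
Log2(FPKM + 1) of 6 cytosolic heat shock genes against the muscle marker score, with 1 point per library coloured by group. The 22 °C libraries are lowest for each gene, at scores of 2.87 and 4.73.

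The second comparison asked how long HFD feeding changes BAT. None of the 40 genes passed with limma, against 0.0684% of all 17543 genes tested (0.0513% upwards and 0.0171% downwards), and 5 of the 40 (12.5%) had an unadjusted p under 0.05, against 14.4% of all. Both HFD libraries were higher for 17 of the 40, beside 39.9% of all genes and 39.2% of those averaging 1 FPKM or more, so this share is near the background. Chac1 alone was lower in both, beside 5.8% of all. Both HFD libraries were higher with at least a 2-fold change in 6 of the 40, beside 3.3% of all: Sdf2l1, Manf, Atf4, Pdia4, Hspa5 and Calr. The median log2 fold change of the 40 was 0.51, beside 0.18 over all genes tested and 0.29 over genes averaging 1 FPKM or more. After median centring 11 were higher in both and 2 lower, beside 11.3% and 28.4% of all genes, and the median fell to 0.16.

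Of the 6 genes with a 2-fold difference, 5 belonged to the ER group, in which 7 of 15 genes (46.7%, near the 39.9% of all) were higher in both HFD libraries, and the median log2 fold change was 0.70. Sdf2l1 measured 3.64 and 0.547 FPKM in NCD and 6.00 and 9.60 FPKM in HFD (1.69, SE 0.53, adjusted p = 0.222). Manf measured 15.6 and 9.08 FPKM in NCD and 26.8 and 34.7 FPKM in HFD (1.28, SE 0.42, adjusted p = 0.242). Pdia4 measured 15.8 and 6.20 FPKM in NCD and 17.2 and 27.9 FPKM in HFD (1.06, SE 0.50, adjusted p = 0.392). In these genes the lower HFD library was above the higher NCD library, for Pdia4 only narrowly.

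Hspa5 measured 86.4 and 44.6 FPKM in NCD and 112.7 and 143.5 FPKM in HFD (1.02, SE 0.54, adjusted p = 0.442). Calr measured 80.0 and 45.8 FPKM in NCD and 105.8 and 141.5 FPKM in HFD (1.003, SE 0.52, adjusted p = 0.439). NCD replicate 8 was the low library in each case. Pdia6 and Dnajb11 were also higher in both, by 0.66 and 0.70. Herpud1, which rose in the cold, measured 32.1 and 24.1 FPKM in NCD and 31.2 and 36.8 FPKM in HFD, with overlapping groups (0.28, SE 0.41, adjusted p = 0.802). Dnajb9 had a log2 fold change of -0.34 and the remaining ER members, Canx, Hsp90b1, Pdia3, Dnajc3, Creld2 and Hyou1, had 0.32 to 0.85 with overlapping groups.

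With library type as a covariate, the 6 genes named for a 2-fold difference passed (adjusted p between 0.00964 for Manf and 0.0296 for Hspa5), all upwards, against 4.25% of all genes (3.35% upwards). The covariate acts as a pairing of libraries by type and leaves the log2 fold changes unchanged. Only these 6 of the 40 could therefore pass, and few residual degrees of freedom remain. Over all alternatives the adjusted p ranged from 0.00964 to 0.997 for Manf and from 2.57e-06 to 0.723 for Sdf2l1. Without NCD replicate 6, which leaves NCD replicate 8 alone and keeps only libraries whose label strings begin alike, Sdf2l1, Pdia4, Dnajb1 and Hspa1b passed, against 4.28% of all genes. Without HFD replicate 2 Sdf2l1 passed, against 2.09% of all. Without HFD replicate 6 or NCD replicate 8 none of the 40 did, against 0.695% and 1.39% of all.

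Of the UPR sensors and factors, 5 of 6 were higher in both HFD libraries (83.3%, beside 39.9% of all genes and 39.2% of those averaging 1 FPKM or more). The median log2 fold change was 0.74, beside 0.29 over genes averaging 1 FPKM or more. Atf4 measured 29.2 and 18.4 FPKM in NCD and 43.1 and 65.0 FPKM in HFD (1.16, SE 0.46, adjusted p = 0.317). Ddit3 measured 8.83 and 7.37 FPKM in NCD and 19.96 and 13.27 FPKM in HFD (0.93, SE 0.37, adjusted p = 0.318). Atf5 measured 16.7 and 15.0 FPKM in NCD and 26.6 and 28.2 FPKM in HFD, with replicates closer to each other than the groups (0.75, SE 0.37, adjusted p = 0.415). Atf6 and Ern1 differed by 0.45 and 0.26, and by 0.097 and -0.097 after median centring. Xbp1 measured 26.8 and 10.7 FPKM in NCD and 21.5 and 39.1 FPKM in HFD, with overlapping groups (0.73, SE 0.54, adjusted p = 0.586).

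Of the 3 ATF4 and CHOP targets, none passed under HFD. Chac1 measured 2.21 and 2.04 FPKM in NCD and 1.41 and 0.912 FPKM in HFD (-0.54, SE 0.24, adjusted p = 0.360), and with the muscle score as a covariate the value was 0.28. Trib3 measured 2.26 and 1.73 FPKM in NCD and 3.07 and 2.94 FPKM in HFD (0.43, SE 0.27, adjusted p = 0.525). Asns measured 20.2 and 12.6 FPKM in NCD and 15.9 and 21.5 FPKM in HFD, with overlapping groups (0.20).

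In the cytosolic heat shock group, 4 of 13 genes (30.8%, below the 39.9% of all) were higher in both HFD libraries, namely Hspa4, Dnaja1, Hsf1 and Hspa2, by 0.41 to 0.98. The inducible genes had overlapping groups. Hspb1 measured 79.0 and 34.2 FPKM in NCD and 58.2 and 78.5 FPKM in HFD (0.37, SE 0.55, adjusted p = 0.799). Hspa1a measured 2.13 and 0.527 FPKM in NCD and 1.05 and 2.14 FPKM in HFD (0.21, SE 0.38, adjusted p = 0.837). Hspa1b measured 5.21 and 0.580 FPKM in NCD and 2.29 and 4.49 FPKM in HFD (0.44, SE 0.61, adjusted p = 0.786). Hsp90aa1 measured 172.5 and 73.2 FPKM in NCD and 99.98 and 146.7 FPKM in HFD (0.11, SE 0.60, adjusted p = 0.953). The remaining members, Hspa8, Hsp90ab1, Hspb8, Hsph1 and Dnajb1, lay between -0.02 and 0.96.

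Hspa8 measured 801.6 and 260 FPKM in NCD and 535 and 869.7 FPKM in HFD, so that each HFD library was below or above NCD replicate 6 by less than the NCD libraries differed. The mitochondrial chaperones were higher in both HFD libraries in 0 of 3 cases, with log2 fold changes of 0.04 for Hspa9, 0.15 for Hspd1 and -0.20 for Hspe1. Hspd1 measured 180.0 and 106 FPKM in NCD and 146 and 160.8 FPKM in HFD. Median centring turned the sign of 9 of the 40 diet values, those of Asns, Canx, Ern1, Herpud1, Hsp90aa1, Hsp90ab1, Hspa1a, Hspa9 and Hspd1, so no direction is read for them. Beside these values, muscle markers were lower in both HFD libraries for 10 of 11 (median log2 fold change -3.74), and macrophage markers were higher in both for 6 of 6 (summed 38.9 to 108 FPKM in NCD and 187 to 239 FPKM in HFD). Of the white adipocyte markers 4 of 5 were higher in both, and Lep, Nnat and Mest passed. B and plasma cell markers summed to 3.57 to 5.41 FPKM in NCD and 7.54 to 13.45 FPKM in HFD. Of the 7 tested, 3 were higher and 3 lower in both HFD libraries. Macrophages and secretory cells express ER chaperones as a rule, and the part of these cells in the diet values was not tested.

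The cold and diet experiments share no library, so the responses could be compared directly in a fit of all 8 libraries. Of the 40 genes, 1 differed between the responses, against 1.16% of 16559 genes that were higher in the cold response: Chac1, by 2.97 log2 units (SE 0.52, adjusted p = 0.0390). With library type as a covariate 6 were higher in the cold response, against 2.81% of all: Chac1, Trib3 (2.59), Hspb8 (2.31), Dnajb9 (2.06), Hspb1 (1.94) and Atf5 (1.61). None was lower in either fit, against 0.489% of all genes without the covariate and 2.24% with it. Pdia4 had a difference of -1.25 (SE 0.43, adjusted p = 0.125 with library type), and Atf4 of 0.63 (SE 0.30, adjusted p = 0.235 with library type). Muscle markers moved in opposite directions in the experiments (median log2 fold changes of 3.46 and -3.74). With the muscle score as a covariate Chac1 had 1.62 in the cold (SE 0.51) and 0.28 under HFD (SE 0.51), and the difference between these was not tested. The mice of both experiments also differed in age and food, which cannot be told apart from the treatments here.

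The wider pathways were described from lists of 121 further genes, of which 115 were in the table. In the cold, 6 of 111 tested genes passed and all rose, beside 1.44% of all genes (21 passed with library type as a covariate, beside 4.92%), and 66 (59.5%) were higher in both 4 °C libraries, beside 37.9% of all genes and 46.9% of those averaging 1 FPKM or more. Among small heat shock proteins and co-chaperones, 24 of 31 were higher in both and 3 passed. Hspb7 measured 0.712 and 0.316 FPKM at 22 °C and 50.8 and 23.7 FPKM at 4 °C (log2 fold change 4.57, adjusted p = 0.0208). Hspb6 measured 3.92 and 2.05 FPKM at 22 °C and 27.5 and 24.0 FPKM at 4 °C (2.78, adjusted p = 0.0271). The third was the J-domain co-chaperone Dnaja4 (1.90, adjusted p = 0.0495). Hspb6 and Hspb7 are known as muscle-enriched, and the part of muscle RNA in their rise was not tested.

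In the integrated stress response list, 11 of 18 tested genes were higher in both 4 °C libraries and 3 passed. This share is 61.1%, beside 37.9% of all genes and 46.9% of those averaging 1 FPKM or more. Ddit4, an inhibitor of mTORC1, measured 2.30 and 2.82 FPKM at 22 °C and 20.8 and 20.6 FPKM at 4 °C (2.61, SE 0.19, adjusted p = 0.0196). Fgf21, a hormone that ATF4 induces, measured 0.0611 and 0.104 FPKM at 22 °C and 12.6 and 5.91 FPKM at 4 °C (3.16, SE 0.34, adjusted p = 0.0299). Slc3a2, a subunit of amino acid transporters, measured 18.63 and 19.98 FPKM at 22 °C and 96.4 and 63.8 FPKM at 4 °C (1.97, SE 0.27, adjusted p = 0.0442). These 3 are known targets of the same arm as Atf4, Trib3 and Chac1. The rest of the tested list was not higher in both. Psat1 (0.50), Pck2 (0.33), Nupr1 (0.08), Stc2 (-0.11) and Phgdh (-0.38) had overlapping groups. Eif2ak4 (-0.16) and Eif2ak2 (-0.66) were lower in both 4 °C libraries. In the other lists none passed. The last 2 shares given here, 45.5% and 38.1%, are near the 37.9% of all genes and the 46.9% of those averaging 1 FPKM or more. The TRiC chaperonin had 7 of 8 genes higher in both (largest Cct3, 0.63), mitochondrial folding and proteolysis 6 of 11 (largest Dnaja3, 1.49, adjusted p = 0.0547), UPR regulators and ER-associated degradation 10 of 22 (largest Atf3, 2.196), and ER folding, translocation and oxidation 8 of 21 (largest Prkcsh, 1.04).

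Under HFD, 0 of 113 further genes passed with limma, 16 (14.2%, near the 14.4% of all genes) had an unadjusted p under 0.05, and with library type as a covariate 7 passed, beside 4.25% of all. These 7, all higher under HFD, were Phgdh, Psat1, Gdf15, Hspa12a, Serpinh1, Atf3 and P4hb, named after their values were seen. Of the 113, 44 were higher in both HFD libraries (38.9%, near the 39.9% of all genes). By list, both HFD libraries were higher for 14 of 20 integrated stress response genes, 13 of 22 UPR regulators, 8 of 31 co-chaperones and small heat shock proteins, 6 of 21 ER folding genes, 3 of 8 TRiC subunits and 0 of 11 mitochondrial genes. The largest was Phgdh, the first enzyme of serine synthesis, which measured 4.41 and 1.41 FPKM in NCD and 15.6 and 24.7 FPKM in HFD (2.52, SE 0.47, adjusted p = 0.138). Atf3 differed by 1.34 and the disulfide isomerase P4hb by 1.09.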

How the data were processed

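Libraries were directional and depleted of ribosomal RNA. The authors mapped reads to GRCm38 with Tophat2 and obtained gene values on Ensembl 87 with Cufflinks (2.2.1 in the submitters' processing notes, another version in the methods). The deposited values are FPKM, which the authors gave for every gene in each library without pooling. Whether strand was used in counting is not stated. FPKM are not counts, so log2(FPKM + 1) was tested with limma 3.58.1 in R 4.3.3 (lmFit, eBayes with an intensity trend), two-sided, with Benjamini-Hochberg adjustment over all genes tested. Each comparison used its own 4 libraries. Genes needed 0.1 FPKM in 2 of the 4 libraries, and X, Y and mitochondrial genes were left out. The threshold was an adjusted p under 0.05 and a change of at least 1 on the log2 scale. Adding 1 understates the changes of low genes. The deposited table gives no depth, and fragment steps cover counting error only. Of the 49452 genes, 49109 matched GENCODE by identifier. Promoters came from RefSeq.

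The script was tested on simulated data. The labels do not say whether libraries came from separate animals, so p-values measure the spread between these samples. The members, lists and tests were chosen with earlier results of these data known. Genes were named with values in every library when they passed, when groups did not overlap with at least a 2-fold change, when they were highest in their role, or when they belonged to a short set (Hspa5, Hspa1a, Hspa1b, Hsp90aa1, Hspb1, Hspd1, Ddit3, Atf4, Xbp1). Others were named where the text describes them.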

Additional observations from a re-analysis of the deposited data

How the results depend on the processing

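No pairing by replicate number was possible because 22 °C and 4 °C share no replicate number and NCD and HFD share only number 6. Library type as a covariate acts as a pairing of libraries by type. In the cold comparison the number of the 40 genes past the threshold was 3. It was 5 with a pseudocount of 0.1, 0 with no filter, 10 with a filter of 1 FPKM, 13 with X, Y and mitochondrial genes kept, 7 with quantile normalization, 12 with median centring, 7 with the autosomal sum without Ucp1, 16 with library type as a covariate, 8 and 14 in a fit of all 8 libraries without and with library type, 0 with the muscle score, 0 without the intensity trend, and 13 with median centring and library type together, an alternative chosen after seeing the data. Leaving out 1 library gave 0 to 1. Where this left an arm with 1 library, that library was assumed to vary like the other group. Over all genes the count was 252, and under the same settings in the same order 474, 0, 529, 920, 491, 758, 533, 859, 439, 869, 0, 0 and 916, with 0 to 246 when 1 library was left out. The number higher in both 4 °C libraries, 34, was 17 after the autosomal sum, and the number lower in both, 0, was 3 after median centring and 3 after the autosomal sum, both settings chosen after seeing the data.

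In the diet comparison 0 of the 40 passed, and 6 with library type, 2 with all 8 libraries and library type, 1 with median centring and library type, and 0 to 4 when 1 library was left out. Over all genes 12 passed. The count was 0 with no filter, with X, Y and mitochondrial genes kept, with quantile normalization, with the autosomal sum and without the trend, 24 with a filter of 1 FPKM, 45 with median centring, 745 with library type, 75 and 439 with all 8 libraries without and with library type, 1 with the muscle score, 558 with median centring and library type, and 122 to 751 when 1 library was left out. The number higher in both, 17, was 11 after median centring, and the number lower in both, 1, was 2 after median centring (28.4% of all genes) and 3 after the autosomal sum (11%).

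Among the genes that the naming rule chose in each comparison, log2 fold changes that changed sign were those of Asns in the cold (quantile -0.16, autosomal sum -0.13, -0.10 to 0.66 when 1 library was left out) and Xbp1 in the cold (0.074 with the muscle score). Under HFD, quantile normalization gave -0.056 for Asns, -0.031 for Hsp90aa1, -0.040 for Hspa1a and -0.060 for Hspa9. Median centring gave -0.15 for Asns, -0.25 for Hsp90aa1, -0.14 for Hspa1a, -0.31 for Hspa9 and -0.21 for Hspd1, with the same values when library type was added. The autosomal sum gave -0.048 for Hsp90aa1, -0.11 for Hspa9 and -0.0067 for Hspd1. The muscle score gave -0.14 for Asns, -0.93 for Hsp90aa1, -0.10 for Hspa1a, -0.28 for Hspa1b, -0.45 for Hspa8, -0.28 for Hspb1 and -0.34 for Hspd1. Leaving out 1 library gave -0.12 to 0.52 for Asns, -0.51 to 0.72 for Hsp90aa1, -0.30 to 0.73 for Hspa1a, -0.55 to 1.43 for Hspa1b, -0.23 to 1.39 for Hspa8, -0.17 to 0.25 for Hspa9, -0.22 to 0.96 for Hspb1 and -0.23 to 0.53 for Hspd1. Over all 40 genes, the sign of the cold value turned in 4 under quantile normalization, 2 under median centring, 4 under the autosomal sum, 5 with the muscle score and 0 to 3 when 1 library was left out. That of the diet value turned in 4, 9, 3, 14 and 3 to 9. Within library types, 1 library per group with no test, the sign turned in 4 cold and 5 diet values in the libraries with little Gm10800 (satellite-low) and in 1 of each in those above 100 FPKM (satellite-high). Xbp1 in the cold was 0.19 and -1.14 in the satellite-low and satellite-high libraries, and Asns was -0.079 in the satellite-high ones. The cause of these differences was not tested. Among genes averaging 1 FPKM or more, the middle change was 0.21 (cold) and 0.29 (HFD) as deposited, and -0.05 and -0.06 after median centring, so changes of that size cannot be placed on either side of 0. Herpud1 passed in 8, Hspb1 in 10 and Atf5 in 11 of 17 alternatives.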
